A study of Mus musculus with 9 samples.

Results

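The cytosolic ribosomal proteins are the proteins that, together with ribosomal RNA, build the 60S and 40S subunits of the ribosome in the cytoplasm. Members were all gene symbols of the array annotation with an Rpl or Rps name of the standard form, and Rpsa, Rplp0, Rplp1 and Rplp2; processed pseudogenes with -ps names and the Rps6k kinases were left out. Of 30142 genes with a transcript cluster (the array's unit of measurement) of their own, 43 were members, 25 with 60S names and 18 with 40S names. The array table lists many ribosomal protein genes only on clusters shared with other symbols: of 90 symbols of this form in RefSeq, 43 had an own cluster, 40 stood only on clusters with several symbols, and 7 were not analysed here. The RefSeq table gives 40 members as protein coding and 3 as pseudogenes (Rpl6l, Rps3a2 and Rps3a3).

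The mutant mice, called ACDiEKO, carried the tamoxifen-switched recombinase Cdh5-CreERT2(+), driven by an endothelial promoter, and Mef2a f/f, Mef2c f/f and Mef2d f/f alleles. Control mice were littermates with the same floxed alleles that lacked the recombinase, and both genotypes received tamoxifen in 5 daily injections at 10 weeks of age, so an effect of the recombinase itself cannot be told apart from that of the deletion. All mice were female, and each of the 9 Clariom D arrays (5 ACDiEKO, 4 control) held RNA from the endothelium of 1 thoracic aorta, taken by flushing TRIzol through the lumen. Harvest was 7 days from the start of tamoxifen by the series text and 14 days by the sample protocols, and the sources do not settle which.

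Every cell needs ribosomal proteins in near equal numbers, because each ribosome takes up 1 copy of most of them. Most of their mRNAs begin with a 5′ terminal oligopyrimidine (5′ TOP) tract, a C followed by a run of C and T, through which the growth-sensing kinase mTORC1 controls their translation together. Ribosome building is linked to growth and division in many cell types, and aortic endothelium in the adult is largely quiescent. MEF2A, MEF2C and MEF2D are DNA-binding transcription factors of the MADS-box family.

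ACDiEKO replicates 1 and 2 were nearly identical (robust SD of their differences 0.0707 log2 units, against 0.268 to 0.401 for 15 other pairs within a group) and were averaged, so that 4 ACDiEKO samples stood against 4 control samples. Their titles carry different animal numbers, and the sources do not settle whether both arrays hold the same RNA. The deposited values reach 19.34 log2 units, more than a 16-bit scanner spans, so all differences are log2 units of the deposited values and not folds. The cluster values of the targeted genes were not lower in ACDiEKO arrays: Mef2a lay at 13.61 to 13.98 in ACDiEKO and 13.55 to 13.76 in control, Mef2c at 9.86 to 10.12 and 9.78 to 9.99, and Mef2d at 10.42 to 10.68 and 10.15 to 10.38. The floxed exons are not given in the sources used here, and a cluster value averages probes along a whole transcript, so these values do not check the deletion. Medians over all values of an array were 6.13 to 6.15 in ACDiEKO and 6.17 to 6.23 in control. Endothelial markers were high in every sample (mean of 9 markers 13.23 to 13.58 in ACDiEKO and 13.36 to 13.74 in control), with 2 higher and 2 lower in ACDiEKO. Controls 3 and 4 have animal numbers apart from those of the other 7 mice.

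Ribosomal protein mRNAs differed little between the genotypes, and those that passed the test were all higher in ACDiEKO. Genes entered the test with 4 or more arrays over 6.165 (the table's median), and were called at a Benjamini-Hochberg adjusted p under 0.05 in limma over all 16403 genes tested. Of 41 members tested, 7 rose in ACDiEKO, none fell and 34 did not pass, which is 17.1% called, against 16.3% of all genes tested (8.92% higher and 7.33% lower). At an unadjusted p under 0.05, 10 members were higher and 0 lower (24.4%), against 32.7% of all genes in either direction and 15.6% in the higher one. Rpl3l and Rpl10l were below the filter. The 7 were Rpsa, Rps24, Rpl12, Rplp0, Rpl7l1, Rpl27 and Rpl10a, with log2 differences of 0.33 to 0.72.

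The median log2 difference over the 41 members was 0.10 (quartiles 0.02 and 0.24), against -0.03 over all genes tested, and 32 members (78%) lay above 0, against 45.3% of all genes. Sizes were small. The median absolute difference was 0.11 among members and 0.19 among all genes, 2 members (4.88%) differed by more than 0.5 against 18% of all genes, and none differed by more than 1 against 6.22%. Replicates of a member were also closer together than those of a typical gene: the median SD was 0.11 in ACDiEKO and 0.12 in control for members, and 0.16 and 0.17 for all genes. Members were not matched to other genes by brightness. All 41 also passed a stricter filter at 8.417 (the table's 75th percentile), which 8930 of the 16403 genes passed. The median half-width of a member's 95% confidence interval was 0.21. Samples of the groups did not overlap for 8 members, all higher in ACDiEKO (the 7 called and Rps18), against 12% of all genes in that direction, and for 0 members in the lower direction, against 11%.

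**Figure D1:**
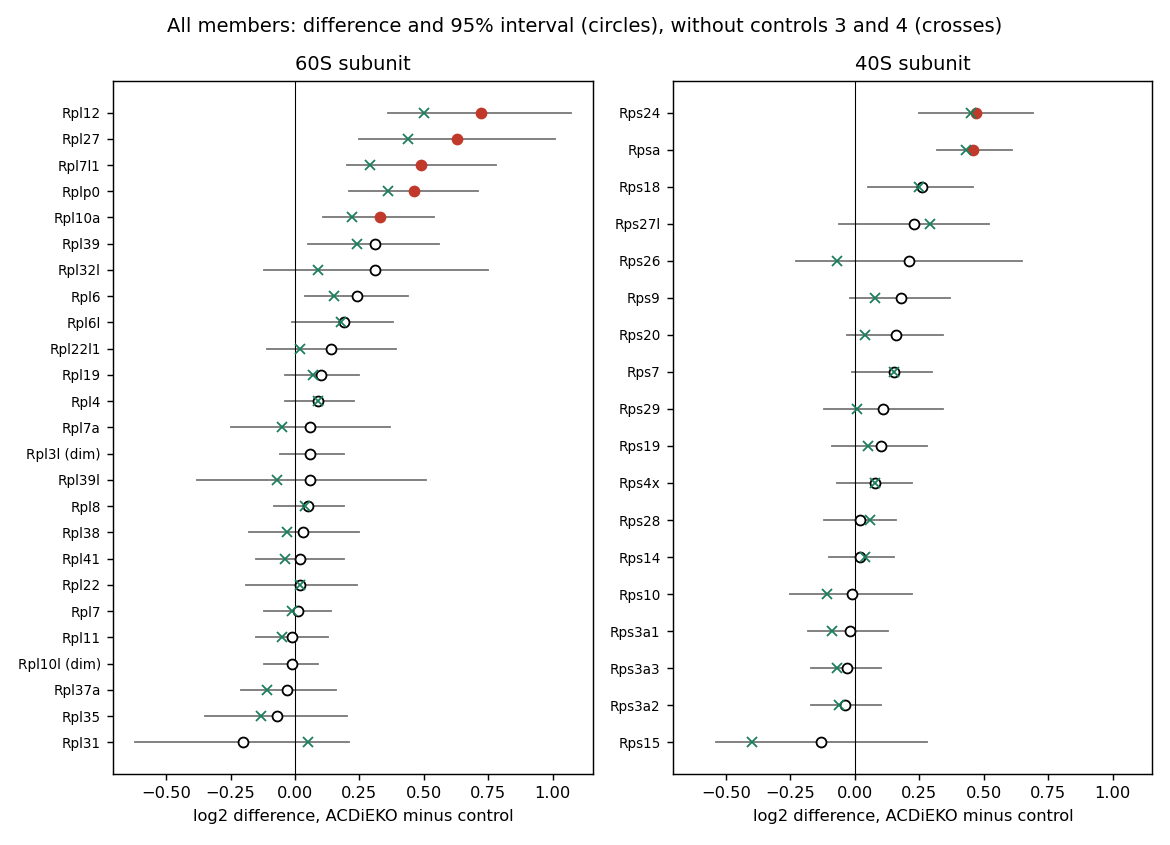
Log2 difference, ACDiEKO minus control, of all 43 members (circles, with 95% confidence intervals from limma on 4 samples a group; filled where called, dim members from the fit without the filter), split by subunit and ordered by size, with crosses for the difference without controls 3 and 4. The 7 called members, from Rpl10a at 0.33 to Rpl12 at 0.72, lie right of 0, and 9 of the 41 tested members lie left of it, down to Rpl31 at -0.20.

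Start regions were taken from 5 called members and from 3 uncalled coding members with narrow confidence intervals. The 3 stand in RefSeq's promoter table and have a cluster on the gene's own chromosome. Not every uncalled coding member with an interval as narrow as theirs was included. The start regions are shown because the 5′ TOP tract is the feature that ribosomal protein mRNAs are known to share. Each runs from 30 bases before the annotated gene start to 30 bases after, 5′ to 3′ on the gene's strand, in RefSeq's GRCm38.p6, with the longest run of C and T in capitals. Rpl12 and Rpl27 are left out because their cluster IDs name another chromosome than that of the gene. The called members come first.
Rpsa, chr9:120127736-120127795, plus strand: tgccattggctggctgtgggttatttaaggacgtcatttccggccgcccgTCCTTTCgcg
Rplp0, chr5:115559437-115559496, plus strand: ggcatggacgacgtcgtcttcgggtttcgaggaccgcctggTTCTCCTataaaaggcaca
Rps24, chr14:24490723-24490782, plus strand: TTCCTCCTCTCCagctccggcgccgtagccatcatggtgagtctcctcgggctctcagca
Rpl10a, chr17:28328535-28328594, plus strand: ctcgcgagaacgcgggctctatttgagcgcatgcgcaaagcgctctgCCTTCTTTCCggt
Rpl7l1, chr17:46782627-46782686, minus strand: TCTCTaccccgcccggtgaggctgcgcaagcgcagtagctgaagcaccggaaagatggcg
Rpl4, chr9:64173357-64173416, plus strand: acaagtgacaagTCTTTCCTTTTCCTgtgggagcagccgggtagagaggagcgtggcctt
Rpl11, chr4:136053364-136053423, minus strand: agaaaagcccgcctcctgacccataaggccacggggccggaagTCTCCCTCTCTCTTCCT
Rps28, chr17:33824533-33824592, minus strand: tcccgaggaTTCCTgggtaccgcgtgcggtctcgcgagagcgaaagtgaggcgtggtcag

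The runs were 7, 7, 12, 10 and 5 bases long in the called members Rpsa, Rplp0, Rps24, Rpl10a and Rpl7l1, and 14, 17 and 5 bases in Rpl4, Rpl11 and Rps28. Long runs thus occurred in called and uncalled members, and short ones in both. Counted from the annotated gene start, they began at base 20, 11, -30, 17 and -30 in the called members, in the same order. In Rpl4, Rpl11 and Rps28 they began at -18, 13 and -21. Runs were sought only inside the printed bases. Those of Rps24 and Rpl7l1 touch the first printed base and that of Rpl11 the last, so these 3 may be longer than given. No run began at the annotated start itself, so the capitals are not shown to be 5′ TOP tracts. Where the table lists several starts of a gene, the one with the longest run was taken, and an annotated start can lie some bases from the start used in a cell. Of the 43 members, 35 were found in the table of 27025 genes. A run of at least 8 C and T within 30 bases of the start occurred in 19 of the 35 (54.3%), against 25.8% of all genes, and a C at the start itself followed by at least 4 C or T in 5 (14.3%), against 3.01%. In the promoter window of 250 bases before to 50 after the start, on either strand, CCGGAAG, a core of ETS-family sites, occurred in 16 (45.7%) against 9.93%. AAGATGGC, the core of YY1 sites, was found in 2 (5.71%, Rpl22 and Rpl7l1) against 3.19%. CACGTG, the E-box bound by MYC and its relatives, stood in 2 (5.71%) against 8.09%, and TATAAA in 6 (17.1%) against 15.7%. The MEF2 consensus motif occurred in 1 member (2.86%, Rpl3l) against 3.7% of all genes. These are matches of letters in a window and not binding sites.

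Among the 40S members, 2 of 18 tested rose in ACDiEKO (11.1%, against 8.92% of all genes called higher), 0 fell, 13 lay above 0 and the median difference was 0.11. Rpsa, a 40S protein that also occurs at the cell surface as the laminin receptor, had 12.60 (mean of replicates 1 and 2), 12.58, 12.63 and 12.66 in ACDiEKO and 12.26, 12.12, 12.15 and 12.08 in control. The ACDiEKO samples lay close together and all above every control. The log2 difference was 0.46 ± 0.06 (SE, n = 4 and 4; limma adjusted p = 0.0031, 95% interval 0.32 to 0.61). It was 0.44 to 0.50 with each array left out in turn (adjusted p 0.00281 to 0.0122), and 0.43 (adjusted p = 0.0351) without controls 3 and 4.

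Rps24, a 40S protein needed for cleavage of the precursor of 18S rRNA and mutated in some patients with Diamond-Blackfan anaemia, had 11.82, 11.79, 12.06 and 11.83 in ACDiEKO and 11.38, 11.46, 11.54 and 11.23 in control. The groups did not overlap, and ACDiEKO replicate 4 stood above the others of its group. The difference was 0.47 ± 0.09 (SE; limma adjusted p = 0.0133), with adjusted p 0.0125 to 0.0338 when single arrays were left out. Without controls 3 and 4 it was 0.45 with an adjusted p of 0.0606.

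Of 23 tested 60S members, 5 rose in ACDiEKO (21.7%, against 8.92% of all genes called higher), 0 fell, 19 lay above 0 and the median difference was 0.09. The stalk of the 60S subunit recruits the translation factors that hydrolyse GTP. It is built from Rplp0, Rplp1 and Rplp2, with Rpl12 at its base. Rplp0 and Rpl12 had clusters of their own and both rose, against 8.92% of all genes called higher. Rplp1 and Rplp2 are not analysed here. Nothing particular to the stalk is read from 2 genes. Rpl12 had 14.54, 14.32, 14.54 and 14.84 in ACDiEKO and 14.06, 14.06, 13.71 and 13.54 in control. Its difference, 0.72 ± 0.15 (SE; limma adjusted p = 0.017, 95% interval 0.36 to 1.07), headed the members, and with single arrays left out the adjusted p was 0.0163 to 0.0486. Controls 3 and 4 were the lowest samples, and without them the difference was 0.50 (adjusted p = 0.102). The Rpl12 cluster carries an ID that places it on chromosome 10, whereas the gene lies on chromosome 2 in RefSeq, so its signal cannot be told apart from that of a copy of the gene.

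Rplp0, the scaffold of the stalk and a common reference gene of expression studies, had 13.91, 13.69, 13.67 and 13.77 in ACDiEKO and 13.29, 13.51, 13.37 and 13.05 in control. Every ACDiEKO sample lay above every control. The difference was 0.46 ± 0.11 (SE; limma adjusted p = 0.0259). Calls were lost without control 1 (0.45, adjusted p = 0.0576), without ACDiEKO replicate 4 (0.49, 0.0506) or without ACDiEKO replicate 5 (0.45, 0.0531), and without controls 3 and 4 it was 0.36 (adjusted p = 0.107).

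Rpl27, a 60S protein and another Diamond-Blackfan gene, had 15.62, 15.50, 15.89 and 16.14 in ACDiEKO and 15.32, 15.38, 14.95 and 14.98 in control. The closest samples of the 2 groups were ACDiEKO replicate 3 and control 2. The difference was 0.63 ± 0.16 (SE; limma adjusted p = 0.036). The adjusted p was 0.0513, 0.088 and 0.0919 without control 1, 3 or 4, 0.0975 and 0.0624 without ACDiEKO replicate 4 or 5, and 0.218 without controls 3 and 4, where the difference was 0.44. The brightest Rpl27 cluster has an ID on chromosome 18 and the gene lies on chromosome 11. Its dimmer cluster on chromosome 11 averaged 10.34 in ACDiEKO and 9.76 in control, a difference of 0.58 (adjusted p = 0.018 where it stood for the gene in limma).

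Rpl7l1, a relative of Rpl7 that in human cells is found in precursors of the 60S subunit, had 10.66, 10.74, 10.80 and 10.77 in ACDiEKO and 10.55, 10.35, 10.16 and 9.95 in control. ACDiEKO samples clustered closely (SD 0.06) and controls spread more (SD 0.26). The difference was 0.49 ± 0.12 (SE; limma adjusted p = 0.0323). With control 2, 3 or 4 left out the adjusted p was 0.0524, 0.0797 and 0.0551, with ACDiEKO replicate 3, 4 or 5 left out 0.0684, 0.0875 and 0.065, and without controls 3 and 4 the difference was 0.29 (adjusted p = 0.109).

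Rpl10a, the 60S protein of the L1 stalk, next to the site where spent tRNA leaves, had 9.48, 9.18, 9.32 and 9.22 in ACDiEKO and 9.06, 9.10, 8.86 and 8.88 in control. The groups lay close without overlap. The difference was 0.33 ± 0.09 (SE), and its limma adjusted p of 0.0491 stood at the threshold. Leaving out any single array other than ACDiEKO replicate 2 ended the call (control 1 to 4: adjusted p 0.067, 0.0527, 0.109 and 0.115; ACDiEKO replicates 1, 3, 4 and 5: 0.0516, 0.0564, 0.112 and 0.0628). Without controls 3 and 4 the difference was 0.22 (adjusted p = 0.253).

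**Figure D2:**
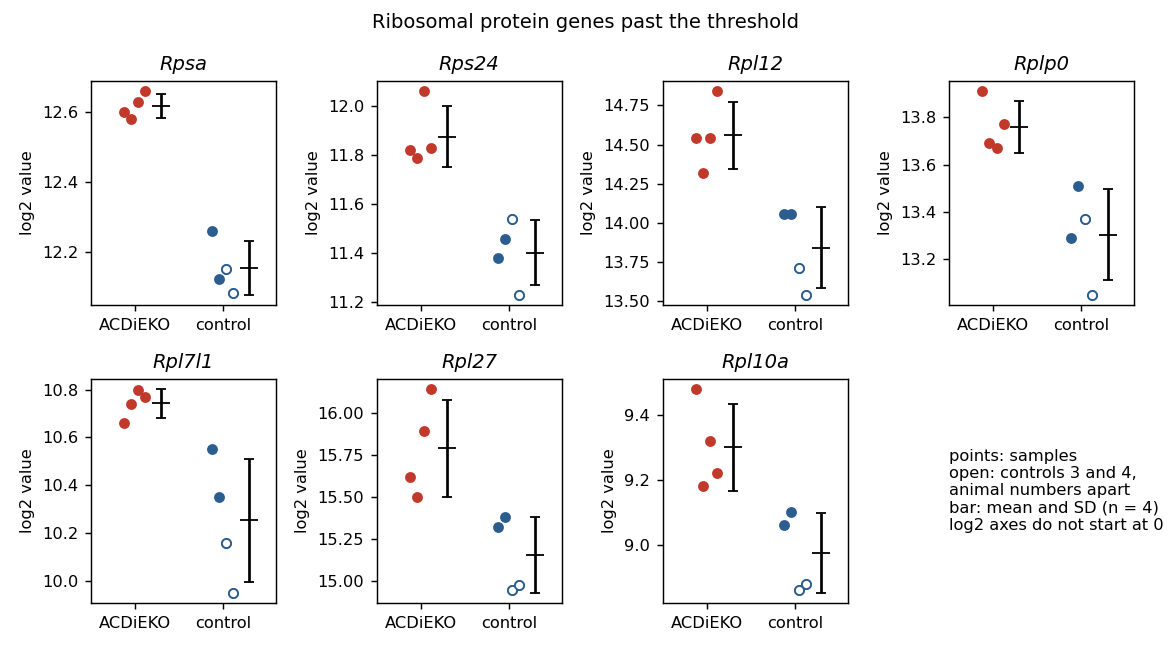
Deposited log2 value of the 7 called members in each sample (points; open for controls 3 and 4), ACDiEKO left and control right in each panel, with mean and SD as bars (n = 4 each) and replicates 1 and 2 of ACDiEKO as their mean. No ACDiEKO sample of these members overlaps a control sample, and Rpsa lies at 12.58 to 12.66 in ACDiEKO and 12.08 to 12.26 in control.

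Of the proteins around the exit of the peptide tunnel, where new chains leave the 60S subunit, 6 were tested (Rpl4, Rpl19, Rpl22, Rpl31, Rpl35 and Rpl39). None was called, against 16.3% of all genes, and with so few genes nothing particular to the list is read from this. Above 0 lay 4 of the 6 (66.7%, against 45.3% of all genes), and the median difference was 0.06. Rpl39, a very small protein in the tunnel wall, came closest with 0.31 (95% interval 0.05 to 0.56, limma adjusted p = 0.102). Rpl31, at the tunnel exit, averaged 10.73 ± 0.24 in ACDiEKO and 10.93 ± 0.32 in control (SD, n = 4 each), the most negative difference of the members at -0.20 (interval -0.62 to 0.21, adjusted p = 0.466). Rpl35 differed by -0.07 (interval -0.35 to 0.20). Rpl11, which with Rpl5 and 5S rRNA forms the particle that restrains MDM2 when ribosome assembly fails, had 8.51 in all ACDiEKO samples and 8.51, 8.61, 8.43 and 8.51 in control (difference -0.01, interval -0.15 to 0.13). Rpl11 thus took 3 distinct values over the 9 arrays, and 18 of the 43 members had at least 1 value repeated. Rpl5 is not analysed here.

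Other genes used as references in expression studies had smaller measured differences than Rplp0, and their difference from Rplp0 was not tested. Rps18, in the head of the 40S subunit, had 9.88, 9.55, 9.62 and 9.63 in ACDiEKO and 9.34, 9.50, 9.33 and 9.47 in control. Its groups did not overlap, but the difference of 0.26 (interval 0.05 to 0.46) did not pass (limma adjusted p = 0.0871). The differences of Rpl4, Rpl19 and Rps29 were 0.09 (interval -0.04 to 0.23), 0.10 (-0.04 to 0.25) and 0.11 (-0.12 to 0.34). Rpl13a and Rpl32 had no cluster of their own. Of the reference genes 1 of 5 tested rose (20%, against 8.92% of all genes), with a median of 0.11.

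Genes mutated in Diamond-Blackfan anaemia, an inherited failure of red cell production, counted 2 risers (Rps24 and Rpl27) among 9 tested (22.2%, against 8.92% of all genes called higher), with 7 above 0 (77.8%, against 45.3%) and a median of 0.11. With so few genes, nothing particular to the list is read from these counts. The uncalled ones were Rps7, Rps10, Rps19, Rps26, Rps28, Rps29 and Rpl11, with differences between -0.01 and 0.21.

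Some ribosomal proteins have paralogs, second genes for a related protein. Of the 4 tested paralogs (Rpl7l1, Rpl22l1, Rpl39l and Rps27l), Rpl7l1 rose (25%, against 8.92% of all genes called higher). All 4 lay above 0, against 78% of the members and 45.3% of all genes, with a median of 0.19. Rpl7 itself, the parent of Rpl7l1, averaged 10.85 ± 0.02 in ACDiEKO and 10.84 ± 0.05 in control (difference 0.01, interval -0.12 to 0.14). Rpl22l1, which in mouse cells is held low by Rpl22, differed by 0.14 (limma adjusted p = 0.395) and Rpl22 by 0.02 (interval -0.19 to 0.24). Rpl39l, known for expression in testis, differed by 0.06 (adjusted p = 0.85), against 0.31 for its parent Rpl39. Rps27l, a p53 target in human cells, differed by 0.23 (interval -0.06 to 0.52, adjusted p = 0.237). Rps4x, the X-linked parent of Rps4l, differed by 0.08 (interval -0.07 to 0.22). Rpl3l, a protein of heart and skeletal muscle, and Rpl10l, of testis, were dim on all arrays, at 5.00 and 5.18 in ACDiEKO and 4.94 and 5.20 in control. In a fit without the filter, in which 4 of 43 members were called higher against 3.61% of 30142 genes, their differences were 0.06 and -0.01 (adjusted p = 0.506 and 0.891). Rpl3, Rpl10, Rps27, Rpl36a, Rpl36al and Rps4l are not analysed here. No test compared a paralog with its parent.

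No remaining member passed. In the 60S subunit these were Rpl6, Rpl6l, Rpl7a, Rpl8, Rpl32l, Rpl37a, Rpl38 and Rpl41, between -0.03 (Rpl37a) and 0.31 (Rpl32l). Rpl6 was the nearest to a call, at 0.24 (interval 0.04 to 0.44, limma adjusted p = 0.0936), and passed without control 1 (0.31, adjusted p = 0.037). In the 40S subunit they were Rps3a1, Rps3a2, Rps3a3, Rps9, Rps14, Rps15 and Rps20, between -0.13 (Rps15) and 0.18 (Rps9), with adjusted p of 0.186 or more.

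**Figure D3:**
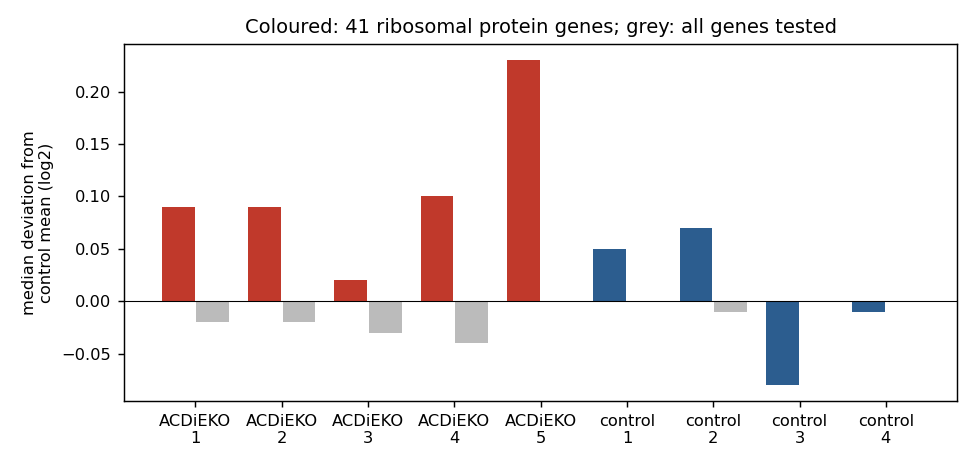
Median deviation from the control mean, in log2 units, for each of the 9 arrays, ACDiEKO left and control right, as coloured bars for the 41 tested members and grey bars for all tested genes. Members reach 0.23 in ACDiEKO replicate 5 and -0.08 in control 3, whereas the median of all tested genes stays between -0.04 and 0.00.

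Members as a list also sat higher or lower in single arrays of one genotype. The median deviation of the 41 members from the control mean was 0.09, 0.09, 0.02, 0.10 and 0.23 in ACDiEKO replicates 1 to 5, and 0.05, 0.07, -0.08 and -0.01 in controls 1 to 4. On this scale the groups overlapped, with ACDiEKO replicate 3 below controls 1 and 2. With each array centred on its median they did not, at 0.17, 0.16, 0.09, 0.15 and 0.28 in ACDiEKO and 0.08, 0.05, -0.04 and -0.05 in control. Over all genes tested the medians were -0.04 to 0.00 before centring. With centring they were 0.06, 0.05, 0.05, 0.01 and 0.04 in ACDiEKO and 0.02, -0.03, 0.04 and -0.04 in control. ACDiEKO replicate 5 was the highest of the 9 arrays for 20 of 41 members, control 3 the lowest for 16 and control 4 for 10. Both controls 3 and 4 lay below both other controls for 22 of 41 members (53.7%), against 19.3% of all genes, and above both for 1 (2.44%), against 21.7%. Without controls 3 and 4, only Rpsa of the 41 members passed, 27 lay above 0 and the median difference was 0.05, while 634 of all genes tested (3.87%) were called higher. Without ACDiEKO replicate 5, 3 members passed (Rpl12, Rps24 and Rpsa) (7.32%, against 8.16% of all genes called higher) and the median was 0.07.

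Markers of other cells differed between the same samples, and their part in these results was not tested except as stated. The mean of 15 smooth muscle markers was 9.41 to 10.22 in ACDiEKO and 8.34 to 9.08 in control, and 9 of 13 tested were higher, none lower (Des and Pln were dim). Of markers of dividing cells, 20 of 20 tested were higher, with means of 9.33 to 10.19 in ACDiEKO and 7.21 to 7.63 in control. The mean of 7 leukocyte markers was 9.20 in ACDiEKO replicate 5, 7.02 to 7.41 in the other ACDiEKO arrays and 6.61 to 7.23 in control, with none of 5 tested called and Cd3e and Cd79a dim. Fibroblast markers had means of 8.36 to 9.27 in ACDiEKO and 8.84 to 9.26 in control, with 1 of 6 lower. Adipocyte markers had 7.36 to 10.16 and 8.64 to 11.26, and the 1 erythroid marker tested 9.61 to 11.59 and 9.99 to 11.89, with no call. With the mean of the 13 tested smooth muscle markers as a covariate, 0 members and 0 of the 16403 genes passed in limma. At an unadjusted p under 0.05, 1 member (2.44%) and 1300 genes (7.93%) passed in that fit. The mean of these 13 markers did not overlap between the genotypes, so the covariate and the genotype cannot be told apart. In these bulk samples a change in the share of a cell type and a change in RNA per cell also cannot be told apart.

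Processed pseudogenes are copies of mRNAs inserted elsewhere in the genome, and the mouse genome holds many for ribosomal proteins. Of 206 with -ps names, 190 were tested: 8 rose in ACDiEKO (4.21%, against 8.92% of all genes), 0 fell, 102 lay above 0 and the median difference was 0.01. All 8 were copies of called members: 5 of the 7 tested copies of Rpsa, and Rpl10a-ps1, Rpl12-ps1 and Rpl27-ps1. Of 17 tested copies of the 7 called members, all lay above 0, with a median of 0.45. Of 57 copies of uncalled members, 0 passed in limma (3 at an unadjusted p under 0.05), 14 lay above 0 and the median was -0.07. Among 116 copies of genes that are no members, 0 passed (3 at an unadjusted p under 0.05), with a median of 0.02.

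Rpsa-ps9 averaged 15.59 ± 0.11 in ACDiEKO and 15.02 ± 0.08 in control (SD, n = 4 each; difference 0.58, limma adjusted p = 0.00291). Rpsa-ps10 differed by 0.65 (adjusted p = 0.00524) and Rpsa-ps4 by 0.45 (adjusted p = 0.00854). The 7 copies ranged from 0.35 (Rpsa-ps5) to 0.65. Without controls 3 and 4, 2 of the 8 called copies still passed, Rpsa-ps9 and Rpsa-ps10 (0.51 each, adjusted p = 0.0364 and 0.0393). Rpl27-ps1 and Rpl27-ps2 differed by 0.66 and 0.62 (adjusted p = 0.0496 and 0.0544), beside the 0.63 of Rpl27. The copy of Rplp0 differed by 0.59 (interval -0.02 to 1.20, adjusted p = 0.162) and that of Rpl7l1 by 0.19. Rpl10a-ps1 and Rpl12-ps1 differed by 0.29 each (adjusted p = 0.0355 and 0.0365). The copies of Rps24 gave lower values than their parent: 0.03 for Rps24-ps2 and 0.14 for Rps24-ps3, with intervals of -0.46 to 0.52 and -0.22 to 0.50 that include the 0.47 of Rps24. Processed copies share most of their sequence with the parent mRNA, so their probes can catch it, and these clusters are no independent measurement.

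**Figure D4:**
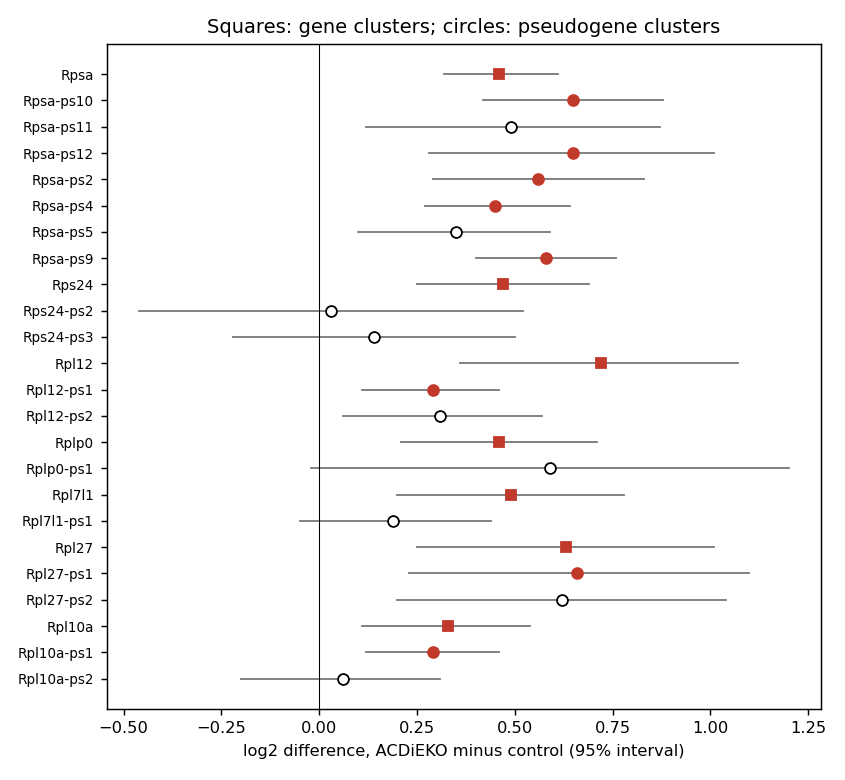
Log2 difference, ACDiEKO minus control, with 95% confidence intervals from limma (4 samples a group) for the 7 called members (squares) and their 17 tested pseudogenes (circles), filled where called. All circles lie right of 0, the 7 copies of Rpsa between 0.35 and 0.65 and the copies of Rps24 at 0.03 and 0.14.

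The genome holds ribosomal protein genes that the array lists only together with other symbols, on 53 clusters that are given here without names. In a fit over all 65956 clusters, where fewer pass, 1 of the 53 rose (1.89%) and 0 fell, against 1.96% and 2.32% of all clusters. Of the 43 member clusters, 3 rose in this fit (6.98%) and 0 fell. Of the 53, 42 (79.2%) lay above 0, against 37.7% of all clusters and 76.7% of the 43 member clusters. Their median difference was 0.11 (range -0.50 to 0.74), that of the member clusters 0.09 and that of all clusters -0.04. In 13 of the 53 every ACDiEKO sample exceeded every control, and in 0 the reverse held, against 3129 and 4978 of the 65956 clusters.

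Clusters of the same gene gave close differences for some genes and less close ones for others. The cluster ID and RefSeq disagreed on the chromosome for 6 members (Rpl12, Rpl27, Rpl31, Rpl35, Rpl41 and Rpl7a). For Rpl35 the bright cluster gave -0.07 and that on its own chromosome -0.05, for Rpl41 0.02 and 0.17, and for Rpl7a 0.06 and 0.14, none passing. With only clusters on a gene's own chromosome, 6 of 39 members passed (8.93% of all genes were called higher in that fit), since Rpl12 and Rpl31 have none. Rps26 had 3 clusters at 0.21, 0.30 and -0.74, of which the last was dim (5.97 in ACDiEKO and 6.71 in control) and none passed.

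Genes outside the naming rule were read beside the members as a description. Of 17 tested other 5′ TOP mRNAs, mostly translation factors, 2 rose (11.8%, against 8.92% of all genes), 0 fell, 12 lay above 0 and the median was 0.11. Eef1g, a subunit of the elongation factor that reloads EEF1A with GTP, averaged 13.14 ± 0.12 in ACDiEKO and 12.61 ± 0.07 in control (SD, n = 4 each; difference 0.53, limma adjusted p = 0.0043). Npm1, the nucleolar chaperone of ribosome assembly, differed by 0.47 (adjusted p = 0.0178), and by 0.34 (adjusted p = 0.119) without controls 3 and 4. Pabpc1, the poly(A)-binding protein, differed by 0.25 (adjusted p = 0.142). Snhg5 and Snhg6 are host transcripts of small nucleolar RNAs that also start with a 5′ TOP tract. They were the 2 tested of 7 listed hosts and both rose, against 8.92% of all genes called higher. With so few genes, nothing particular to the class is read from this count. Snhg6 averaged 9.92 ± 0.16 in ACDiEKO and 9.16 ± 0.07 in control (difference 0.76, adjusted p = 0.00194), and Snhg5 10.60 ± 0.28 and 9.72 ± 0.25 (difference 0.89, adjusted p = 0.0113). Both still passed without controls 3 and 4 (adjusted p = 0.0236 and 0.0326). Of the ribosomal proteins whose names fall outside the rule, Fau, the fusion gene that encodes eS30, averaged 11.72 ± 0.38 in ACDiEKO and 11.90 ± 0.40 in control (difference -0.17, adjusted p = 0.659). Rack1 is not analysed here.

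Mitochondrial ribosomal proteins, which build the separate ribosome that translates mitochondrial mRNAs, lay nearer to 0 in the median. Of 70 tested, 2 rose (Mrpl54 by 0.82, limma adjusted p = 0.0184, and Mrpl22 by 0.53, adjusted p = 0.0407) and 1 fell (Mrpl55, difference -0.27, adjusted p = 0.0306), which is 4.29% called against the 16.3% of all genes. The median was 0.03, and 43 (61.4%) lay above 0. Mrpl22 lost its call without control 1 or 4 or ACDiEKO replicate 4 or 5 (adjusted p 0.0594, 0.0798, 0.104 and 0.0853), and Mrpl55 without control 2, 3 or 4 or ACDiEKO replicate 4 (0.061, 0.0724, 0.0708 and 0.0665). Without controls 3 and 4 none of the 3 passed (Mrpl54 0.0952, Mrpl22 0.0849, Mrpl55 0.156). No test compared the mitochondrial with the cytosolic list.

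**Figure D5:**
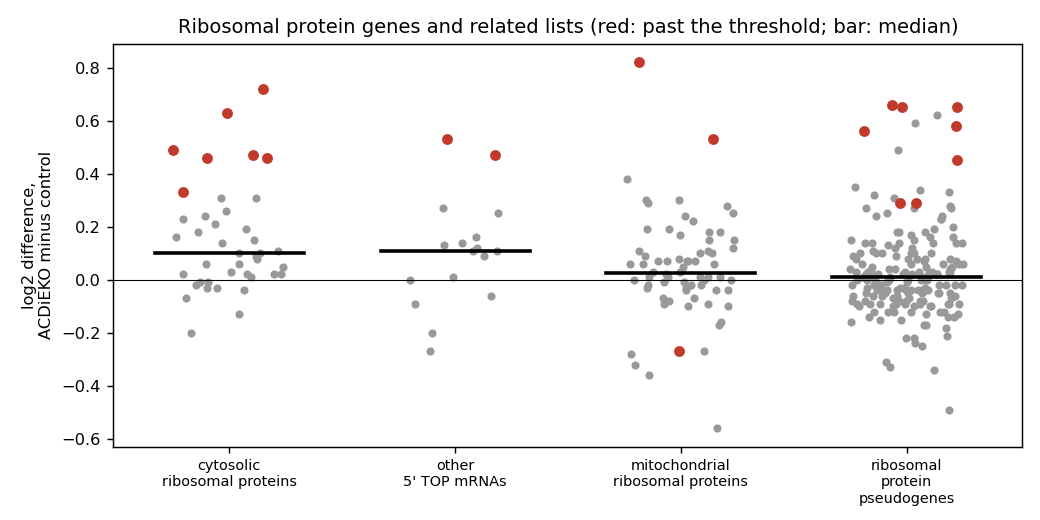
Log2 difference, ACDiEKO minus control, of each tested gene (red where called) in the cytosolic ribosomal proteins, the other 5′ TOP mRNAs, the mitochondrial ribosomal proteins and the pseudogenes, with list medians as bars. Medians are 0.10, 0.11, 0.03 and 0.01, and the median of all 16403 genes, not drawn, is -0.03.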

How the data were processed

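Endothelial RNA was hybridised to mouse Clariom D arrays, 5 ng per WT Pico reaction per the labels. The authors deposited log2 values from RMA (background correction, normalization and probe summary), per the submitters' processing notes, with no version named. Values ran from 2.58 to 19.34. Of 72688 features, 6732 array controls were left out. Of 65956 clusters, 30604 had 1 symbol, 2146 several and 33206 none in the array's table of names, and 827 symbols were updated through gene IDs to RefSeq (GRCm38.p6). The brightest cluster stood for a symbol (30142 genes). Cluster IDs named the RefSeq chromosome for 99.6% of 30126 clusters. The titles give 2 controls the number 3; the second is control replicate 4 here, and other numbers only name arrays.

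ACDiEKO and control samples were set against each other by limma (version 3.58.1, R 4.3.3; two-sided, functions lmFit and eBayes), with Benjamini-Hochberg adjustment over 16403 genes. The fit was tested on simulated data. The number of arrays limits the precision. The p-values measure the spread between samples, each 1 aorta by the labels except the averaged pair, whose arrays may hold the same RNA. Named genes are all called members, the paralogs with their parents, the reference, stalk and 5S genes, Fau and Rack1, and of each other list the 3 members with the smallest p. Other members were named from their values as the ends of a range or as nearest to the threshold, as were further copies of called members. Members and lists were chosen with earlier results of these data known. Alternatives covered filters, scaling, cluster choice, variance models, weights, repeated arrays, replicate numbers, animal numbers, smooth muscle markers, thresholds and single arrays left out. Array deviations between arrays of the same title number correlated at -0.0049, -0.145, 0.0353 and 0.0413 across genes, and were not used as pairs.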

Additional observations from a re-analysis of the deposited data

Results flagged for a closer look

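Among 110 sets of 4 samples (each named gene in each genotype), 7 held a sample set apart from its group, its gap to the nearest sample being, relative to the group's range, over Dixon's critical value for 4 samples. Chance gives about 1 in 20. Of the called members this was Rps24, where ACDiEKO replicate 4 had 12.06 and the others 11.79 to 11.83, still above every control. Rps10, a 40S protein, had 10.45 in ACDiEKO replicate 5 against 10.09 to 10.15 in the others, and the paralog Rpl39l had 7.76 in ACDiEKO replicate 3 against 8.47 to 8.58. The other 4 were gaps of under 0.1 beside nearly tied values: Rps14 at 8.55 in ACDiEKO replicate 4 (others 8.49), Rps28 at 8.50 in the mean of ACDiEKO replicates 1 and 2 (others 8.49), Rpl22 at 9.89 in control 2 (others 9.87), and the dim Rpl10l at 5.26 in control 2 (others 5.17 to 5.18).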

How the results depend on the processing

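The number of members called higher was 7, and 0 were lower under every alternative run. It was 4 with no filter on dim genes (9.3%, against 3.61% of all genes called higher). Without both near-identical arrays it was 3 (7.32%, against 6.22%). A term for the apart animal numbers left 1 (2.44%, against 5.69%), as did leaving out controls 3 and 4 (2.44%, against 3.87%). At an adjusted p of 0.01 it was 1. Leaving out single arrays gave 3 to 7, while 5.78% to 8.94% of all genes were called higher. With the smooth muscle mean as a covariate it was 0, over the tested markers or over all markers, and the members' median difference was 0.01 and -0.00; Rpl10a changed sign there (-0.01 and -0.02). The cause was not tested. The title numbers as a replicate block, with all 9 arrays as samples, gave 4 (Rpl10a, Rpl12, Rplp0 and Rpsa). These were 9.76% of members, against 7.94% of all genes called higher. Centring arrays on their medians gave 9 (adding Rps18 and Rpl39) and moved the split of all genes called from 1463 higher and 1203 lower to 1851 higher and 960 lower; quantile normalization gave 8 and 1970 against 1038. The members' median was 0.16 under both, against all-gene medians of 0.04 and 0.03. Rpsa kept its call in 22 of 24 alternatives, Rps24 in 19 of 24, Rpl12 in 19 of 23, Rplp0 in 16, Rpl27 in 12, Rpl7l1 in 11 and Rpl10a in 9. Over the members' 982 comparisons of a gene with an alternative, 918 kept their call or lack of one, 57 lost it, 5 gained one and 2 reversed. The cluster on the gene's own chromosome and the mean over all smooth muscle markers were chosen after seeing the data.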
